A study of Mus musculus with 12 samples.

Results

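The genes described here are 9 genes of the B cell receptor complex and of mature follicular B cells: Cd79a, Cd79b, Ms4a1, Cd22, Fcer2a, Cr2, Pax5, Blk and Cd72. The genes were chosen with earlier results of these data known, and their probe sets were taken by gene symbol. The array holds 12 probe sets that carry one of these symbols and no other, out of 22626 probe sets and 12393 genes. Spleen RNA was taken from 12 mice, in 4 groups of 3, with 1 array per mouse. The groups, in the order used here, were DUSP1-/- mice 6 h after LPS (knockout LPS), untreated DUSP1-/- mice (knockout control), DUSP1+/+ mice 6 h after LPS (wild-type LPS) and untreated DUSP1+/+ mice (wild-type control). LPS is the endotoxin of Escherichia coli and was given into the peritoneum at 10 µg per g of body weight. The control mice received no treatment, so the injection itself and LPS cannot be told apart. How the Dusp1 allele was made, and the strain, sex and age of the mice, are not given in the sources used here. The series asks how Dusp1, which encodes a phosphatase that inactivates MAP kinases, controls the response to LPS.

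A B cell recognises antigen through a membrane immunoglobulin that is held at the surface by the Cd79a and Cd79b chains, whose tails carry the signal inward to Src family kinases such as Blk. Cd22 and Cd72 are inhibitory receptors that dampen this signal, whereas Cr2 (complement receptor type 2, CD21) binds complement fragments and lowers the amount of antigen needed. Fcer2a (CD23) is the low-affinity IgE receptor of mature follicular B cells, Ms4a1 encodes CD20, and Pax5 is the transcription factor that holds cells in the B lineage. LPS acts on B cells directly through Toll-like receptor 4, and most B cells of the spleen lie in the follicles of the white pulp.

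Values are deposited intensities on a linear scale, listed in the order of replicates 1, 2 and 3 within a group, and differences are on the log2 scale with limma's standard error after ±. Cd79a, Cd79b, Ms4a1, Cd22 and the immunoglobulin heavy chain Ighm were bright in all 12 arrays of this tissue: Cd79a read from 730 to 4499 and Ighm from 10394 to 15228. Some arrays stood apart from their group. The pancreas list, 16 genes of digestive enzymes and hormones, had a mean log2 intensity of 10.91 in knockout control 1, 8.13 in knockout control 3 and 12.17 in wild-type control 1, while the remaining 9 arrays lay between 4.19 and 5.13. Its summed intensity ran from 438 to 581 in knockout LPS, 750 to 46900 in knockout control, 334 to 603 in wild-type LPS and 633 to 103219 in wild-type control arrays, and 0 of its 16 genes passed the limma test with LPS in either genotype (1 in each at an unadjusted p under 0.05). In the LPS response averaged over genotypes, 1 of the 16 was called lower and 11 were lower at an unadjusted p under 0.05, with a median log2 difference of -3.25. Red cell precursor genes were highest in knockout control 1, with a mean of 10.51 over 14 genes. Liver and lung transcripts varied too. The liver list mean ran from 6.47 to 8.78 in knockout LPS, 4.37 to 9.13 in knockout control, 6.02 to 7.92 in wild-type LPS and 4.37 to 7.16 in wild-type control arrays. For the liver gene Trf, a synonym match took the hormone gene Trh instead, so this mean is not of liver genes alone. Knockout control 2 had the highest reading of the 12 arrays for the liver gene Alb (5986) and the lung gene Sftpc (966). Wild-type controls 2 and 3 read 35 and 47 for the X-inactivation RNA Xist, against 1101 to 3949 in the other 10 arrays, and 316 and 53 for the Y-linked gene Eif2s3y, against 7 to 10 elsewhere. Dusp1 itself read 4963, 2948 and 4996 in knockout LPS, 677, 1528 and 1443 in knockout control, 2248, 2142 and 2116 in wild-type LPS and 479, 1354 and 627 in wild-type control arrays. On average no knockout group read below its wild-type counterpart, so Dusp1 did not check the labels, on which each direction between genotypes rests.

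RefSeq windows of 250 bases upstream of an annotated start (GRCm38.p6) were found for 6 of the 9 genes: Cd79a, Cd22, Fcer2a, Cr2, Pax5 and Cd72. Printed here are windows of 2 genes that fell with LPS, Fcer2a (chr8:3694175-3694424, minus strand) and Cr2 (chr1:195176720-195176969, minus strand), and 2 that did not pass the test in either genotype, Cd79a (chr7:24897247-24897496, plus strand) and Cd22 (chr7:30879029-30879278, minus strand). Each reads 5′ to 3′ toward the start, and capitals mark the motif matches named after them.
Fcer2a: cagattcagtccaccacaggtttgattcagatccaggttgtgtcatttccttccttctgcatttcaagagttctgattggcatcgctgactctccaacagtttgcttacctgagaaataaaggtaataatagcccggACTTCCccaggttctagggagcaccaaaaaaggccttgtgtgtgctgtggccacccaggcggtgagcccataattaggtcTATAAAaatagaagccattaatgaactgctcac
Cr2: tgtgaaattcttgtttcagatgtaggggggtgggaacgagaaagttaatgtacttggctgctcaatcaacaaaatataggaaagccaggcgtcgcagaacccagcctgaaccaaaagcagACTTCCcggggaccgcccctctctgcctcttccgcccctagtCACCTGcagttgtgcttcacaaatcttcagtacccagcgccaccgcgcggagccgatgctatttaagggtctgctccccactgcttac
Cd79a: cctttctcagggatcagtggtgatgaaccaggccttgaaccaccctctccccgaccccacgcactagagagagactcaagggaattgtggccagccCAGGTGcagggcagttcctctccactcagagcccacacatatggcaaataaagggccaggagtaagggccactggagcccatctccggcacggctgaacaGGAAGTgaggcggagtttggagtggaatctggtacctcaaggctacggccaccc
Cd22: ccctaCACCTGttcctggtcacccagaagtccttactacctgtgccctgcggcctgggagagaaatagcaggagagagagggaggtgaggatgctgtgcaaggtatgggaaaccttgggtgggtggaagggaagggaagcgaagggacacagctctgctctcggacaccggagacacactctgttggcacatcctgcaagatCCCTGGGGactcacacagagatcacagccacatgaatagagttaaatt
The motifs were searched on both strands. The core CCCNNGGG, bound by the B lineage factor EBF1, lay in 11.8% of 32851 mouse windows of this length and, among the 6 genes, in the window of Cd22, 48 to 41 bases before its start. The ETS motif GGAAGT (19.7% of windows) was in the windows of Fcer2a, Cr2, Cd79a and Cd72, and the E-box CAGGTG (17.2%) in those of Cr2, Cd79a and Cd22 and in another window of Fcer2a, which has 3 annotated starts. The Fcer2a window shown also holds TATAAA (12.4% of windows), 33 to 28 bases before the start. The octamer ATTTGCAT (1.60% of windows) was in none of the 8 windows of these genes. These matches describe letters in the windows and are not known sites.

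With LPS, the low-affinity IgE receptor Fcer2a, the receptor signalling chain Cd79b and the complement receptor Cr2 fell in knockout spleen, with log2 differences of -2.60 ± 0.47, -2.14 ± 0.40 and -1.95 ± 0.52 (limma adjusted p = 0.00510, 0.00596 and 0.0332, n = 3 mice a group). In wild-type spleen 8 of the 9 genes also had negative log2 differences, where 6552 of all 12393 genes did. The median over the 9 was -1.10, but 0 of the 9 passed the test. The other 6 genes did not pass in knockout spleen either, among them the partner chain Cd79a and the inhibitory receptors Cd22 and Cd72. Thus 3 of 9 genes were called lower and 0 higher in knockout spleen, where 9.71% of all genes were called lower and 5.54% higher. In wild-type spleen 4.16% of all genes were called lower and 3.93% higher. The split over all probe sets moved with the scaling: in knockout spleen 1709 of 2869 called probe sets were lower, against 1085 of 2759 after the arrays were shifted to 1 median, 1398 of 2899 after cyclic loess and 1406 of 2775 after quantile normalization, and the same 3 of the 9 genes were called under each. In wild-type spleen 724 of 1491 were lower, against 581 of 1563 after the median shift, and in the averaged response 2630 of 4480, against 1791 of 4456. At an unadjusted limma p under 0.05, 4 of the 9 genes were lower in wild-type spleen (Cd79b, Fcer2a, Cr2 and Blk), where 1496 of all 12393 genes were lower. Array quality weights in limma called 3 of these 4, Cd79b, Cr2 and Blk. The share of all genes called with weights is not given here. The median log2 difference over the 9 genes was -0.69 in knockout spleen, where that of all genes was -0.06, and over all genes in wild-type spleen it was -0.03. Averaged over both genotypes, the LPS response was called lower for Fcer2a, Cd79b, Cr2 and Blk, 4 of 9 genes, where 14.3% of all genes were called lower and 8.52% higher. The RNA came from whole spleen, so fewer B cells and less of a transcript per B cell cannot be told apart.

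**Figure D1:**
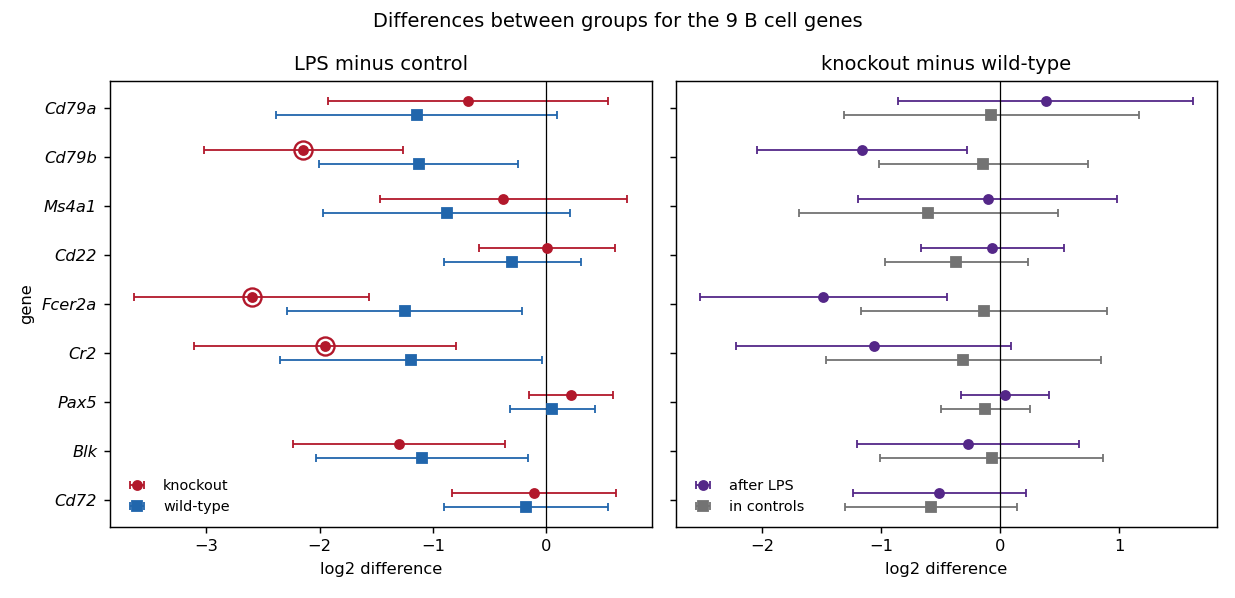
Log2 differences of the 9 genes, LPS minus control (left, knockout as circles and wild-type as squares) and knockout minus wild-type (right, after LPS as circles and in controls as squares), with limma's 95% intervals over 3 arrays a group; rings mark adjusted p under 0.05. Cd79b, Fcer2a and Cr2 carry rings for LPS in knockout spleen, at -2.14, -2.60 and -1.95, and no gene carries a ring on the right.

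Cd79b read 469, 610 and 805 in knockout LPS arrays, against 1380, 4196 and 3431 in knockout control arrays. In wild-type mice it read 1927, 1200 and 1112 after LPS, against 2680, 2610 and 3828 in controls. All LPS arrays lay below the controls of their genotype, as for 3 of the 9 genes in knockout spleen (Cd79b, Fcer2a and Cr2; 17.6% of all genes) and 4 of 9 in wild-type spleen (Cd79b, Cd22, Fcer2a and Blk; 14.8% of all genes). The knockout LPS arrays were the lowest 3 of the 12. Cd79b was 4.42-fold lower with LPS in knockout and 2.18-fold lower in wild-type spleen (-1.13 ± 0.40, limma adjusted p = 0.136), and the averaged response of -1.64 ± 0.28 passed (adjusted p = 0.00228). Its partner chain Cd79a read 1127, 2970 and 1447 in knockout LPS arrays, against 1264, 4363 and 3685 in knockout controls, and 1950, 1546 and 730 in wild-type LPS arrays, against 1882, 2811 and 4499 in wild-type controls. The groups overlapped in both genotypes, since knockout LPS 2 exceeded knockout control 1 and wild-type LPS 1 exceeded wild-type control 1. The Cd79a difference was -0.69 ± 0.56 in knockout (adjusted p = 0.522) and -1.14 ± 0.56 in wild-type spleen (adjusted p = 0.312), with 95% intervals of -1.93 to 0.55 and -2.38 to 0.09.

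The kinase Blk, which relays the receptor's signal, read 407, 430 and 361 in knockout LPS arrays, against 430, 1657 and 1320 in knockout controls. In wild-type mice Blk read 514, 415 and 522 after LPS, against 906, 829 and 1460 in controls. The wild-type groups did not overlap, and in knockout mice knockout control 1 sat at the level of the LPS arrays. The difference was -1.30 ± 0.42 in knockout (limma adjusted p = 0.0735), -1.10 ± 0.42 in wild-type (adjusted p = 0.176) and -1.20 ± 0.30 averaged, which passed (adjusted p = 0.0170). Without knockout control 1 the knockout difference was -1.89 and passed (limma adjusted p = 0.00143). The averaged call was lost without wild-type controls 2 and 3 (-1.11), a fit that left wild-type control 1 alone in its group.

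Among the receptors of mature follicular B cells, Fcer2a changed most in size among the 9 genes in knockout spleen. It read 131, 154 and 116 in knockout LPS arrays, against 390, 1182 and 1127 in knockout controls. In wild-type mice it read 341, 637 and 237 after LPS, against 681, 760 and 1339 in controls. LPS arrays were below the controls in both genotypes, and the 3 knockout LPS arrays were below all other arrays. Fcer2a was 6.06-fold lower with LPS in knockout spleen and 2.38-fold lower in wild-type spleen (-1.25 ± 0.47, limma adjusted p = 0.163). A second Fcer2a probe set, dimmer, read 27, 39 and 16 in knockout LPS arrays, against 97, 317 and 149 in knockout controls, a difference of -2.70 ± 0.64 (adjusted p = 0.0197). Its knockout LPS values were at percentiles 23.0 to 46.1 of all probe sets of an array, a dim range in which the size of the difference is uncertain. In wild-type mice the second set read 75, 159 and 59 after LPS, against 57, 189 and 284 in controls, where the groups overlapped (-0.71 ± 0.64, adjusted p = 0.662).

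Cr2, the complement receptor that works beside the B cell receptor, read 161, 244 and 210 in knockout LPS arrays, against 490, 1733 and 561 in knockout controls. In wild-type mice it read 793, 374 and 255 after LPS, against 1084, 1314 and 637 in controls. The knockout groups did not overlap, whereas wild-type LPS 1 exceeded wild-type control 3. Cr2 was 3.87-fold lower with LPS in knockout and 2.29-fold lower in wild-type spleen (-1.19 ± 0.52, limma adjusted p = 0.245). The knockout call depended on single arrays: it was lost without knockout LPS 1, 2 or 3 (limma adjusted p = 0.123, 0.0559 and 0.0869) and without knockout control 2 (-1.38, adjusted p = 0.0904). It was also lost without wild-type controls 2 and 3 together, a fit that left wild-type control 1 alone in its group. The averaged Cr2 response of -1.57 ± 0.37 passed (adjusted p = 0.0125).

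Neither inhibitory receptor passed the test with LPS. Cd22 read 1871, 1355 and 1670 in knockout LPS arrays, against 1000, 1846 and 2274 in knockout controls, and 1608, 1653 and 1828 in wild-type LPS arrays, against 1927, 1928 and 2436 in wild-type controls. The wild-type groups did not overlap, yet the difference of -0.30 ± 0.27 did not pass (limma adjusted p = 0.665), and in knockout spleen it was 0.0041 ± 0.27, with a 95% interval of -0.60 to 0.61. The second Cd22 probe set, at 230 to 958, gave 0.11 ± 0.43 in knockout and -0.01 ± 0.43 in wild-type spleen. Cd72 read 672, 477 and 692 in knockout LPS arrays, against 393, 618 and 1143 in knockout controls, and 971, 750 and 885 in wild-type LPS arrays, against 921, 904 and 1118 in wild-type controls. LPS and control arrays overlapped in both genotypes. The Cd72 differences were -0.11 ± 0.33 (adjusted p = 0.894) and -0.18 ± 0.33 (adjusted p = 0.868), with intervals of -0.83 to 0.62 and -0.90 to 0.55. In knockout spleen the sign turned with the scaling for both, to -0.027 for Cd22 after cyclic loess and to 0.11 for Cd72 after the median shift.

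For Ms4a1, which encodes the B cell surface protein CD20, the 2 probe sets differed in direction in knockout spleen. The brighter set read 1167, 524 and 1735 in knockout LPS arrays, against 1428, 960 and 1698 in knockout controls, and 2050, 651 and 992 in wild-type LPS arrays, against 2473, 2326 and 1424 in wild-type controls. It gave -0.38 ± 0.49 in knockout (limma adjusted p = 0.719) and -0.88 ± 0.49 in wild-type spleen (adjusted p = 0.399). The dimmer set gave 0.41 ± 0.68 in knockout, where knockout control 2 read 117 against 658 and 657 in the other knockout controls, and -1.19 ± 0.68 in wild-type spleen. LPS and control arrays overlapped for both sets in both genotypes. Pax5, the B lineage transcription factor, was dim: it read 21, 22 and 22 in knockout LPS, 18, 21 and 17 in knockout control, 18, 20 and 26 in wild-type LPS and 22, 20 and 19 in wild-type control arrays. This put Pax5 at percentiles 27.6 to 38.1 of all probe sets of an array, and a change in its level was not measurable at that signal.

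**Figure D2:**
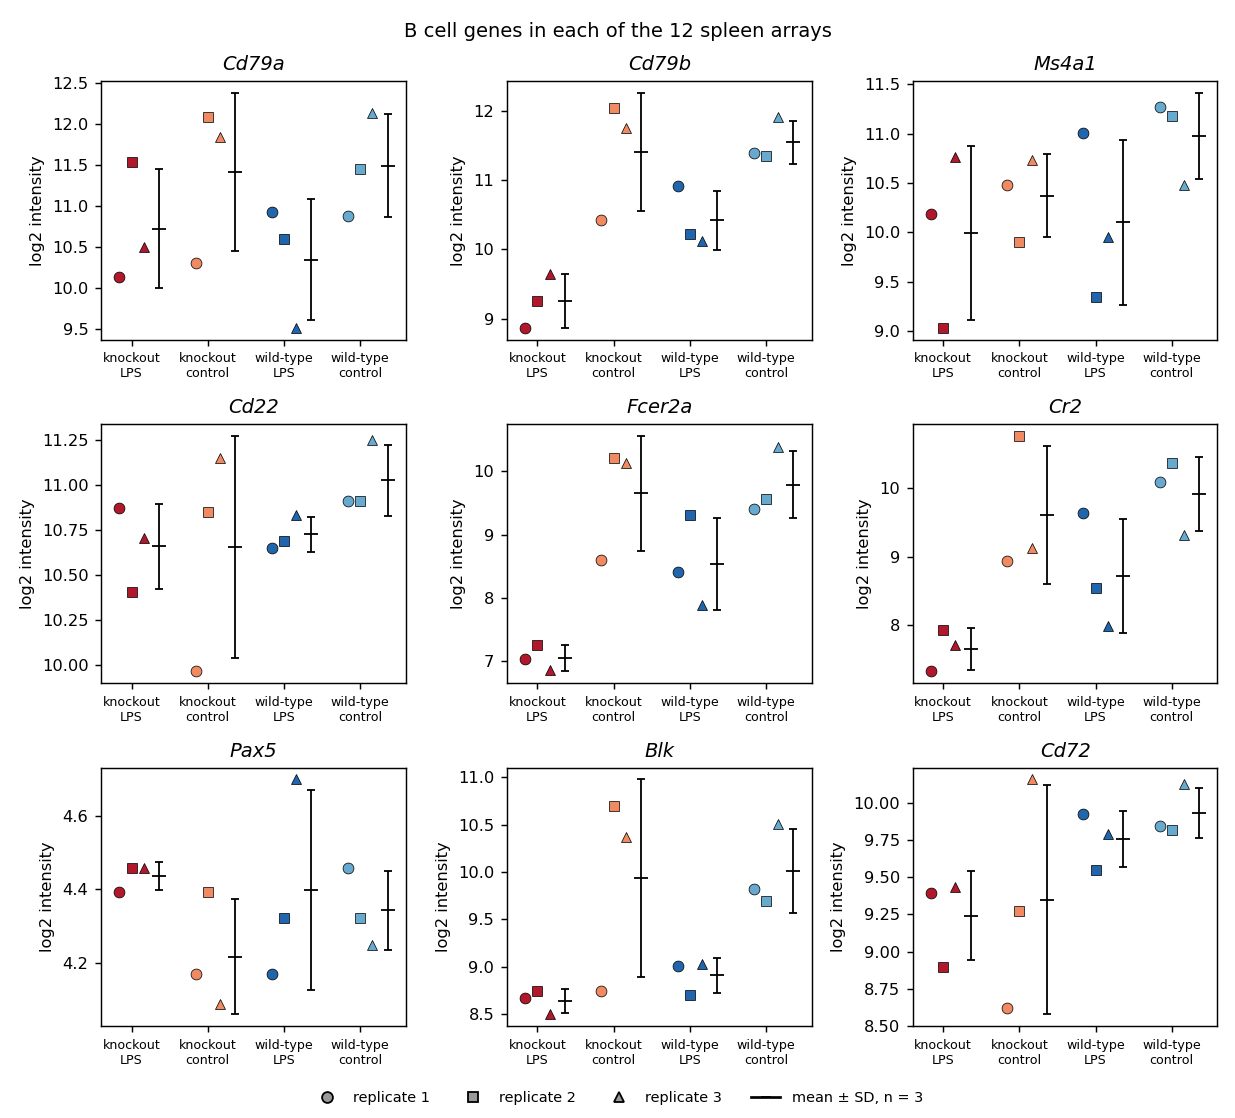
Log2 intensity of each of the 9 genes in each array, by group (circle, square and triangle for replicates 1, 2 and 3), with mean ± SD of 3 arrays as bars; each panel has its own vertical scale. For Cd79b and Fcer2a the 3 knockout LPS arrays, at 469 to 805 and 116 to 154 on the linear scale, lie below all other arrays, while knockout control 1 lies well below the other knockout controls for Cd79a, Cd79b, Cd22, Fcer2a, Blk and Cd72.

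Knockout control 1 was low for most of these genes. The mean log2 intensity of the 9 genes was 8.92 in that array and 10.02 and 9.93 in the other knockout controls, beside 8.54, 8.61 and 8.73 in knockout LPS, 9.40, 9.03 and 8.87 in wild-type LPS and 9.79, 9.85 and 10.04 in wild-type control arrays. The same array was low for 19 T cell genes (6.61, against 8.06 and 8.26 in the other knockout controls) and for 9 pan-leukocyte genes (10.68, against 11.31 and 11.37), and high for pancreas and red cell precursor genes, as given above. Without knockout control 1 the knockout differences were -2.63 for Cd79b, -3.12 for Fcer2a and -2.29 for Cr2, and each passed (limma adjusted p = 0.000782, 0.00114 and 0.0239). Without the 3 arrays with pancreas transcripts they were -2.78, -3.15 and -3.10. That fit left knockout control 2 alone in its group, the highest knockout control for Cd79b, Fcer2a and Cr2 (4196, 1182 and 1733). With the pancreas list as a covariate the knockout differences were -2.54, -3.10 and -2.25 (limma adjusted p = 0.00378, 0.00276 and 0.0341). In wild-type spleen, 2 of the 9 genes, Cd79b and Blk, were called lower without knockout control 1. The share of all genes called in that fit is not given here, so this count has no background beside it. Without the 3 arrays with pancreas transcripts the wild-type Blk difference was -1.19.

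After LPS, 4 of the 9 genes lay lower in all knockout arrays than in any wild-type array: Fcer2a, Cd79b, Cr2 and Cd72. Of all genes, 9.6% were separated lower in this way, 0.145% were called lower and 0.218% called higher. None of the 9 passed the test (0 of 9 called by limma, 2 at an unadjusted p under 0.05, Fcer2a and Cd79b, and the same 2 called with array quality weights). At an unadjusted limma p under 0.05, 763 of all 12393 genes were lower and 506 higher. The share of all genes called with weights is not given here. The Fcer2a difference was -1.49 ± 0.47 (limma adjusted p = 0.303), with 131, 154 and 116 in knockout LPS arrays against 341, 637 and 237 in wild-type LPS arrays. Cd79b differed by -1.16 ± 0.40 (adjusted p = 0.364), Cr2 by -1.07 ± 0.52 (adjusted p = 0.625) and Cd72 by -0.51 ± 0.33 (adjusted p = 0.782). For Cd79a the sign was positive, 0.38 ± 0.56 (adjusted p = 0.965), and the groups overlapped. Blk (-0.27 ± 0.42), Ms4a1 (-0.11 ± 0.49), Cd22 (-0.07 ± 0.27) and Pax5 (0.04 ± 0.17) also overlapped between genotypes.

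In untreated spleen no difference between genotypes was called for any of the 9 genes, where 0% of all genes were called. None of the 9 was separated lower in all knockout controls (0.952% of all genes were). All 9 log2 differences of knockout minus wild-type were negative, with a median of -0.14, where 4647 of all 12393 genes were below 0, and each adjusted p was 1 (limma, 0 of 9 at an unadjusted p under 0.05). Several signs depended on which arrays were kept: without knockout control 1 they turned positive for Cd79a (0.48), Cd79b (0.34), Fcer2a (0.38), Cr2 (0.026) and Blk (0.52), and without the 3 arrays with pancreas transcripts for 6 of the 9 genes. The fit without the pancreas arrays left knockout control 2 alone in its group. Cd79a also turned, to 0.0056, after cyclic loess. The largest were -0.61 ± 0.49 for Ms4a1 and -0.58 ± 0.33 for Cd72, which read 393, 618 and 1143 in knockout control arrays, against 921, 904 and 1118 in wild-type controls. The dimmer Ms4a1 probe set, which did not represent the gene, was separated, at 658, 117 and 657 in knockout control arrays, against 1276, 1557 and 836 in wild-type controls (-1.68 ± 0.68, adjusted p = 1). Whether the LPS response itself differed between genotypes was tested as an interaction, the knockout response minus the wild-type response. No gene was called in that test (0 of 9, 0% of all genes, and 0 of 9 at an unadjusted p under 0.05). The interaction was -1.35 ± 0.66 for Fcer2a (unadjusted p = 0.0677, adjusted p = 0.958) and -1.02 ± 0.56 for Cd79b (unadjusted p = 0.0994, adjusted p = 1), with 95% intervals of -2.81 to 0.12 and -2.26 to 0.23. For Cr2 it was -0.76 ± 0.74 and for Cd79a 0.46 ± 0.79. The calls in knockout spleen and their lack in wild-type spleen therefore do not show that the responses differed.

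The 9 genes did not vary as 1 unit. The 4 groups accounted for 81.4% of the variance of Fcer2a over the 12 arrays and 81.2% of that of Cd79b, and for 69.0% of Cr2, 62.5% of Blk, 39.1% of Cd72, 36.3% of Cd79a, 32.1% of Ms4a1, 26.9% of Pax5 and 22.3% of Cd22. With so few arrays a group, part of the variance falls between groups even where they do not differ. No such baseline was computed, so the lower shares do not show a group effect. Among the 28 pairs that leave out the dim Pax5, Pearson's r over the 12 arrays ran from 0.05 to 0.93 with a median of 0.49, as a description, since the arrays share groups and tissue composition. The receptor chains Cd79a and Cd79b, which pair in the protein complex, differed in ratio between knockout LPS arrays, all of which lay below every other array, and the other 3 groups. The log2 ratio of Cd79b over Cd79a was -1.26, -2.28 and -0.85 in knockout LPS arrays, against 0.13, -0.06 and -0.10 in knockout controls. In wild-type mice it was -0.02, -0.37 and 0.61 after LPS, against 0.51, -0.11 and -0.23 in controls. The log2 ratio of Fcer2a over Cd22 was -3.84, -3.14 and -3.85 in knockout LPS arrays, against -1.36, -0.64 and -1.01 in knockout controls, and -2.24, -1.38 and -2.95 in wild-type LPS arrays, against -1.50, -1.34 and -0.86 in wild-type controls. Both pairs were chosen after the values of all 28 had been seen, so the ratios are descriptions without a reported test. An exploratory permutation test over the 28 ratios, left out of the results, had called other pairs but neither of these. They compare unequal change within an array, and the level of a ratio itself depends on the probes.

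**Figure D3:**
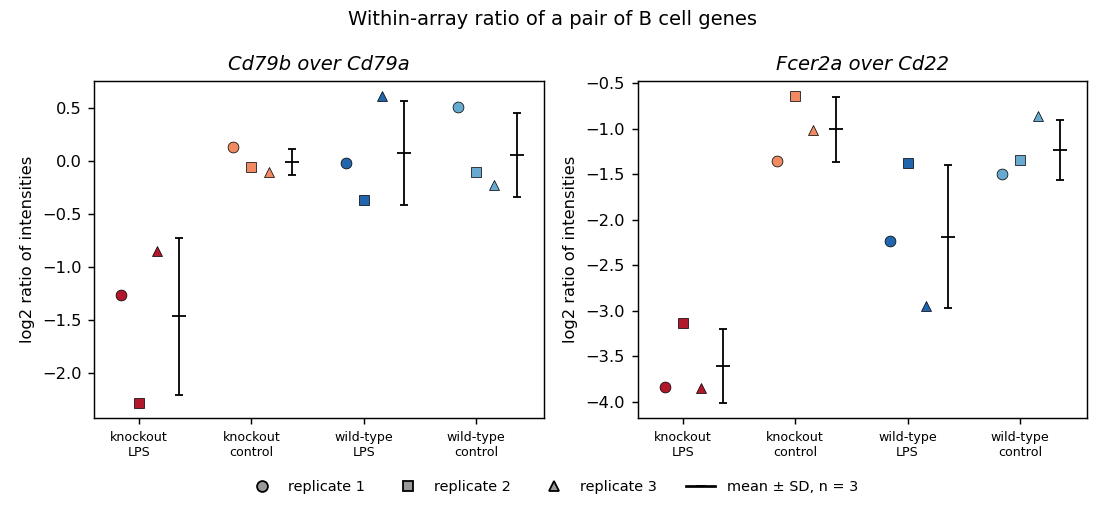
Within-array log2 ratio of intensities for Cd79b over Cd79a (left) and Fcer2a over Cd22 (right) in each array, by group, with mean ± SD of 3 arrays as bars. The knockout LPS arrays, at -2.28 to -0.85 and -3.85 to -3.14, lie below all other arrays in both panels.

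The 10 genes whose log2 profile over the 12 arrays was most like the mean standardised profile of the 9 genes were Ripor2 (r = 0.977), Osbpl11 (0.962), Prkag2 (0.949), Mical1 (0.945), Tnfrsf13c (0.942), Zfp764 (0.941), Myl6 (0.940), Ap3m2 (0.939), Dlg3 (0.938) and Trim11 (0.937). Tnfrsf13c, the receptor for the B cell survival factor BAFF, is the 1 of these that stands on a list of B cell genes used here. Its averaged LPS response was -0.82 ± 0.27 (limma adjusted p = 0.0595). Ripor2 differed by -1.03 in knockout and -1.02 in wild-type spleen. Likeness was ranked by Pearson's r over arrays that share groups and tissue composition.

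Other genes of the B lineage moved in both directions with LPS, and their difference from the 9 was not tested. Of 24 other B lineage surface genes, 2 rose and 2 fell in knockout spleen, where 9.71% of all genes were called lower and 5.54% higher, and 1 rose and 1 fell in wild-type spleen. In the averaged response 3 rose and 4 fell, where 14.3% of all genes were called lower. In wild-type spleen 18 of the 24 had negative log2 differences, 7 were lower and 1 higher at an unadjusted limma p under 0.05, and 9 were separated lower from the controls. There 6552 of all 12393 genes had negative differences, 1496 were lower and 1151 higher at that p, and 14.8% were separated lower. Of all genes there, 4.16% were called lower and 3.93% higher. The median log2 differences were -0.07 in knockout and -0.32 in wild-type spleen. Cd40, the receptor for T cell help, rose in both genotypes (2.55 ± 0.41 and 2.69 ± 0.41, limma adjusted p = 0.00278 and 0.00370), and Cd1d1, which presents lipid antigens, fell in both (-1.51 ± 0.41 and -1.76 ± 0.41, adjusted p = 0.0350 and 0.0292). The inhibitory Fc receptor Fcgr2b rose in knockout spleen (1.47 ± 0.38, adjusted p = 0.0271), with 0.53 ± 0.38 in wild-type spleen (adjusted p = 0.538). The immunoglobulin heavy chain gene Ighm, whose transcripts encode both membrane and secreted forms, read 11944, 11576 and 13122 in knockout LPS arrays, against 13460, 10394 and 13865 in knockout controls. In wild-type mice Ighm read 11612, 11032 and 12418 after LPS, against 15228, 13246 and 12900 in controls. Its differences were -0.03 ± 0.16 (adjusted p = 0.934) and -0.24 ± 0.16 (adjusted p = 0.504), and 15228 was the highest intensity of any probe set in any array. Ighm thus lay at the top of the measured range in all 12 arrays, where a small difference does not show an unchanged level.

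Of 26 genes of B cell receptor signalling, 3 rose and 2 fell in knockout spleen and 1 rose and 0 fell in wild-type spleen, while 3 rose and 7 fell in the averaged response. Of all genes, 9.71% were called lower and 5.54% higher in knockout and 4.16% and 3.93% in wild-type spleen. In the averaged response 14.3% of all genes were called lower and 8.52% higher. Whether the counts of this list and those below differ from these shares was not tested. In wild-type spleen 20 of the 26 had negative log2 differences, 6 were lower and 2 higher at an unadjusted limma p under 0.05, and 9 were separated lower. There 6552 of all 12393 genes had negative differences, 1496 were lower and 1151 higher at that p, and 14.8% were separated lower. The Ras activator Sos1 rose in both (2.19 ± 0.29 and 1.19 ± 0.29, limma adjusted p = 0.00105 and 0.0362), and the kinase adaptor Pik3ap1 rose in knockout spleen (2.63 ± 0.50, adjusted p = 0.00692). The phosphatase Ptpn6 (SHP-1), which is recruited by Cd22 and Cd72, fell in knockout spleen (-1.46 ± 0.31, adjusted p = 0.0113), with -0.27 ± 0.31 in wild-type spleen (adjusted p = 0.753). The adaptor Lat2 fell in knockout spleen (-2.05 ± 0.50, adjusted p = 0.0228), with -0.83 ± 0.50 in wild-type spleen (adjusted p = 0.443). Among 24 B cell transcription factors, 4 rose and 2 fell in knockout spleen and 0 passed in wild-type spleen (limma, 6 at an unadjusted p under 0.05), with 2 rising and 3 falling in the averaged response. In knockout spleen the E protein Tcf3 (-1.83 ± 0.32, limma adjusted p = 0.00403) and the ETS factor Spib (-1.70 ± 0.47, adjusted p = 0.0368) fell. Irf4, Irf8, Foxp1 and Elf1 rose there by 0.87 to 1.53. In wild-type spleen Tcf3 gave -0.40 ± 0.32 and Spib -0.39 ± 0.47. Irf4 gave 0.98 ± 0.40 and Irf8 0.74 ± 0.26 there, while Foxp1 (-0.16 ± 0.21) and Elf1 (-0.42 ± 0.39) had negative differences. Foxp1 and Elf1 did not pass in the averaged response (limma adjusted p = 0.135 and 0.254). Of 12 immunoglobulin and plasma cell genes, 2 rose and 3 fell in knockout spleen and 1 rose and 1 fell in wild-type spleen, with 2 rising and 3 falling in the averaged response. Prdm1, the regulator of plasma cell fate, rose in both genotypes (1.87 ± 0.24 and 1.04 ± 0.24, limma adjusted p = 0.000874 and 0.0289). Creld2 fell in both (-1.51 ± 0.27 and -1.21 ± 0.27, adjusted p = 0.00475 and 0.0237). The light chain gene Iglv1 fell in knockout spleen (-0.98 ± 0.24, adjusted p = 0.0234), with -0.68 ± 0.24 in wild-type spleen (adjusted p = 0.139). The B cell maturation antigen Tnfrsf17 fell in knockout spleen (-1.25 ± 0.30, adjusted p = 0.0222) and gave -0.99 ± 0.30 in wild-type spleen (adjusted p = 0.0867). Tnfrsf17 was dim, with geometric means of 26.8 after LPS and 63.8 in controls in knockout, and 17.1 and 34.0 in wild-type spleen. The size of its difference is uncertain in that range.

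Of 17 genes of follicle entry and retention, 1 rose and 4 fell in knockout and 1 rose and 2 fell in wild-type spleen, with 1 rising and 6 falling in the averaged response. Beside this list and the stroma list below, 9.71% of all genes were called lower and 5.54% higher in knockout spleen. The shares were 4.16% and 3.93% in wild-type spleen and 14.3% and 8.52% in the averaged response. The chemokine receptor Ccr7, which directs lymphocytes to the T cell zone, rose in both (2.10 ± 0.46 and 1.96 ± 0.46, limma adjusted p = 0.0130 and 0.0289). The integrin chain Itgb7 (-2.28 ± 0.44 and -2.50 ± 0.44, adjusted p = 0.00709 and 0.00731) and the chemokine Cxcl12 (-0.98 ± 0.23 and -1.35 ± 0.23, adjusted p = 0.0202 and 0.00685) fell in both. The cannabinoid receptor Cnr2 fell in knockout spleen (-1.91 ± 0.43, adjusted p = 0.0147), with -1.07 ± 0.43 in wild-type spleen (adjusted p = 0.193). The follicle homing receptor Cxcr5 did not pass in knockout (0.63 ± 0.48, adjusted p = 0.489) or wild-type spleen (0.57 ± 0.48, adjusted p = 0.634). Its ligand Cxcl13, made by follicular stroma, read 2027, 1574 and 2738 in knockout LPS arrays, against 848, 1941 and 1349 in knockout controls, and 4328, 2540 and 2167 in wild-type LPS arrays, against 1828, 1830 and 1477 in wild-type controls. The Cxcl13 differences were 0.66 ± 0.34 (adjusted p = 0.269) and 0.76 ± 0.34 (adjusted p = 0.265). Cr2 is also expressed by follicular dendritic cells, and of 16 genes of these cells and of stroma, 2 rose and 2 fell in knockout and 1 rose and 2 fell in wild-type spleen, with 2 rising and 4 falling in the averaged response. The summed intensity of the 9 B cell genes was 6026 to 7058 in knockout LPS, 6793 to 16576 in knockout control, 6587 to 10172 in wild-type LPS and 12576 to 16760 in wild-type control arrays.

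Genes of B cell activation moved the other way. Of 20 measured, 11 rose and 0 fell in knockout spleen and 7 rose and 0 fell in wild-type spleen (13 rose in the averaged response), with median log2 differences of 1.84 and 1.34. Beside this list and those below, 9.71% of all genes were called lower and 5.54% higher in knockout spleen. The shares were 4.16% and 3.93% in wild-type spleen and 14.3% and 8.52% in the averaged response. Il2ra, an interleukin-2 receptor chain shared with T cells, rose by 4.35 ± 0.35 in knockout and 2.65 ± 0.35 in wild-type spleen (limma adjusted p = 4.67e-05 and 0.00160), and Tnfaip3, an inhibitor of NF-kB signalling, by 3.26 ± 0.44 and 2.57 ± 0.44 (adjusted p = 0.00111 and 0.00685). The costimulatory ligand Cd86 did not pass in either genotype (1.84 ± 0.62 and 1.61 ± 0.62, adjusted p = 0.0805 and 0.172). These transcripts are made by several spleen cell types, and their cell of origin was not tested. Of 19 T cell genes, 0 rose and 4 fell in knockout and 0 rose and 2 fell in wild-type spleen (medians -0.54 and -0.79). In the averaged response 9 of the 19 T cell genes fell, beside 4 of the 9 B cell genes. The T cell genes had summed intensities of 3211 to 4321 in knockout LPS, 2665 to 9420 in knockout control, 2333 to 4277 in wild-type LPS and 5685 to 8120 in wild-type control arrays. Of 9 pan-leukocyte genes, 0 were called by limma in knockout (2 at an unadjusted p under 0.05) and 1 was lower in wild-type spleen (medians -0.21 and -0.64), and 1 fell in the averaged response. Of 19 monocyte and macrophage genes, 1 rose and 4 fell in knockout, 2 rose and 6 fell in wild-type spleen, and 3 rose and 10 fell in the averaged response. Their summed intensities were 21648 to 26766 in knockout LPS, 25253 to 31447 in knockout control, 17343 to 18909 in wild-type LPS and 30610 to 34161 in wild-type control arrays. Csf1r, the receptor for the macrophage growth factor M-CSF, fell in knockout (-0.88 ± 0.20, limma adjusted p = 0.0167) and wild-type spleen (-1.56 ± 0.20, adjusted p = 0.00146). It was picked from a list in which other genes rose, and does not stand for that list. Of 14 endothelial genes, 1 rose and 5 fell in knockout, 0 rose and 3 fell in wild-type spleen, and 2 rose and 4 fell in the averaged response. Of 10 dendritic cell genes, 4 rose and 2 fell in each genotype. Of 11 natural killer cell genes, 2 rose and 2 fell in knockout and 1 rose and 1 fell in wild-type spleen. Of 12 neutrophil genes, 1 rose and 0 fell in each genotype. Of 14 red cell precursor and 10 platelet genes, 0 were called in either. Of 8 MHC class II genes, 1 fell in knockout and 0 were called in wild-type spleen. Calls thus leaned lower for T cell, macrophage and endothelial genes, but not for dendritic, natural killer and neutrophil genes. The part of any cell type in the B cell differences was not tested.

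**Figure D4:**
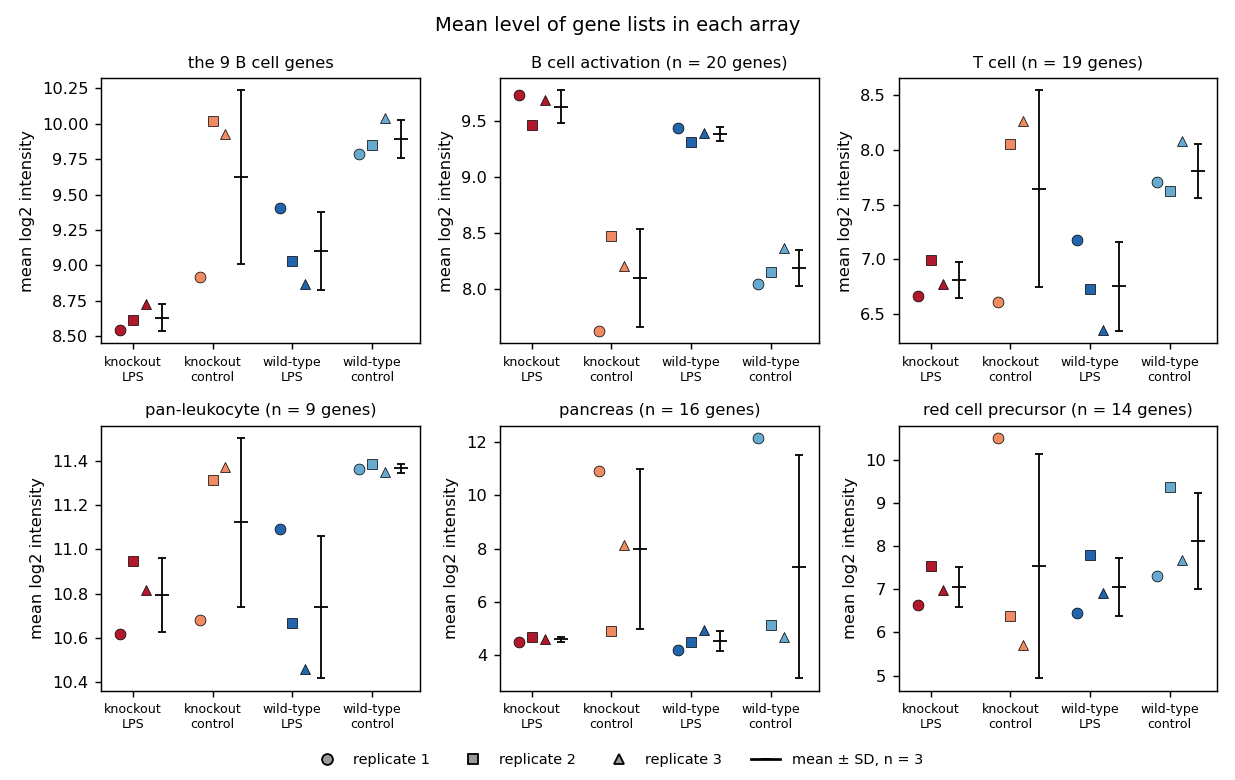
Mean log2 intensity per array of the 9 B cell genes and of 5 gene lists, by group (circle, square and triangle for replicates 1, 2 and 3), with mean ± SD of 3 arrays as bars; each panel has its own vertical scale. The B cell genes averaged 8.54 to 8.73 in knockout LPS, 8.92 to 10.02 in knockout control, 8.87 to 9.40 in wild-type LPS and 9.79 to 10.04 in wild-type control arrays, while knockout control 1 is the lowest control for the B cell, T cell and pan-leukocyte genes and the highest array for red cell precursor genes.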

How the data were processed

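Total RNA (5 µg a mouse) from spleen was hybridised to Affymetrix MOE430A 2.0 arrays, 1 per mouse. Per the series text and the submitters' processing notes, the authors processed the scans with RMA (R's affy package), whose version is not given in the sources used here. Each deposited intensity belongs to 1 probe set and is linear, a whole number from 6 to 15228, of which 30.8% were under 20, with array medians from 47 to 63. Arrays have no read depth: the 3 mice a group and the signal over background limit precision.

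Groups came from the sample titles. The deposited intensity was log2-transformed here, 64 of 22690 probe sets were left out as controls, and 4 group means were fitted to all 12 arrays by lmFit and eBayes of limma (version 3.58.1, R version 4.3.3). The residual degrees of freedom were 8 and the prior ones 2.72. Each of 6 contrasts was tested two-sided with Benjamini-Hochberg adjustment over 22626 probe sets and a threshold of 0.05. Where several probe sets name a gene alone, the one of highest mean stood for it, and a set ending in _x_at was used only where no other existed. The steps were tested on simulated data. Genes named were the 9, up to 6 called genes of each of 8 B cell lists by smallest p in the averaged response, a set always named (Cxcr5, Cxcl13, Ighm, Cd40, Cd86, Cd69, Ptprc, Dusp1 and 1 gene not reported here), and the 10 most alike. The text gives a part of these. Csf1r, Alb, Sftpc, Xist and Eif2s3y were named outside this rule, as genes of other cells, tissues or sex. Cd69 was not analysed here. The members and lists were chosen with earlier results of these data known.

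Same-numbered arrays are from different mice. The correlation of their deviations from the group means ran from 0.136 to 0.277 between knockout and wild-type controls, where every pair was over 0.1, from -0.272 to 0.0608 between knockout LPS and control, from -0.282 to 0.273 between wild-type LPS and control, and from -0.214 to 0.629 between knockout and wild-type LPS arrays. The 25 alternatives were normalization, a pseudocount of 16, a filter at the 40th percentile, array weights, variance model, replicate block, two-group fits, second probe sets, arrays with pancreas or Y-linked transcripts left out, a pancreas covariate and each array left out. Leaving out the arrays with pancreas transcripts kept a single knockout control, and leaving out those with Y-linked transcripts a single wild-type control.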

Additional observations from a re-analysis of the deposited data

How the results depend on the processing

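The 54 log2 differences of the 9 genes (6 contrasts) were recomputed under up to 25 alternatives, 1326 values in all. Of these, 1238 kept their direction and their side of the threshold, 7 lost a call, 15 gained one and 66 changed sign, and 24 differences kept both under every alternative. For genes with a single probe set, the second-probe-set alternative repeated the main fit. The variance model, the two-group fits and leaving out an array of another group kept the log2 difference as it was. Many of the values thus could not change sign, and the counts do not measure how stable the results are. The Cd79b and Fcer2a falls with LPS in knockout spleen passed under all 25 alternatives, with values of -2.78 to -1.83 and -3.15 to -2.32. For Cd79b the second-probe-set alternative was the main fit again. In the fits without pancreas or Y-linked arrays a control group held a single array. The count of genes called with LPS in knockout spleen stayed between 2 and 4, and in the averaged response between 3 and 5. In wild-type spleen the count of 0 became 3 with array weights and ran from 0 to 2 when single arrays were left out. The count of 0 between genotypes after LPS became 2 with array weights. Shares of all genes called with array weights or with single arrays left out are not given here. With the replicate number as a block the counts were 3 in knockout, 0 in wild-type and 4 in the averaged response, and 0 in the other 3 contrasts, so the block changed no count. Cr2 in knockout spleen also lost its call in the fit of its 2 groups alone (limma adjusted p = 0.0744), and the averaged Cd79a response of -0.92 gained one with array weights, with the pancreas covariate and without knockout control 1.

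The 66 sign changes were all in differences that did not pass (lowest limma adjusted p = 0.331 after the change). With LPS in knockout spleen, Cd22 (0.0041) gave -0.027 with cyclic loess, -0.079 with quantile normalization, -0.19 without the pancreas arrays, -0.21 with the covariate and -0.34 to 0.25 with single arrays left out. Cd72 gave 0.11 after a median shift and -0.47 to 0.30 with single arrays left out, and Ms4a1 0.087 without the pancreas arrays, 0.41 with its second probe set and -0.76 to 0.10. In the averaged response, Cd22 gave 0.021 after a median shift and 0.050 with its second probe set, and Cd72 gave 0.026 after a median shift and -0.33 to 0.060 with single arrays left out. Pax5 in wild-type spleen gave -0.062 without the Y-linked arrays and -0.097 to 0.17 with single arrays left out. For knockout minus wild-type in controls, leaving out the pancreas arrays gave 0.29 for Cd79a, 0.59 for Blk, 0.41 for Cd79b, 0.23 for Fcer2a, 0.92 for Cr2 and 0.11 for Pax5. Leaving out the Y-linked arrays gave 0.54 for Cd79a, 0.11 for Blk, 0.015 for Cd79b and 0.24 for Fcer2a. Without the pancreas arrays the knockout controls held a single array, and without the Y-linked arrays the wild-type controls did. Cyclic loess and the covariate gave 0.0056 and 0.051 for Cd79a, array weights and the covariate 0.0097 and 0.015 for Blk, and the second probe set 0.19 for Fcer2a. With single arrays left out the same contrast ran from -0.41 to 0.48 for Cd79a, -0.45 to 0.52 for Blk, -0.46 to 0.34 for Cd79b, -0.42 to 0.38 for Fcer2a and -0.88 to 0.026 for Cr2. After LPS, knockout minus wild-type gave -0.029, -0.049 and -0.052 for Pax5 with cyclic loess, quantile normalization and array weights, and 0.45 for Ms4a1 and 0.019 for Cd22 with array weights. With single arrays left out it ran from -0.074 to 0.19 for Pax5, -0.49 to 0.37 for Ms4a1, -0.17 to 0.062 for Cd22 and -0.037 to 0.67 for Cd79a. The interaction gave -0.068 for Pax5 without the pancreas arrays, and -0.16 for Cd79a and -0.015 for Cd72 without the Y-linked arrays. With single arrays left out it ran from -0.0998 to 0.79 for Cd79a, -0.30 to 0.47 for Cd72, -0.042 to 0.55 for Cd22 and -0.79 to 0.18 for Blk. The cause of these changes was not tested. Shifting the arrays to 1 median moved the median of all probe sets to 0.17 with LPS in knockout, 0.10 in wild-type and 0.14 averaged. With 3 mice a group and Pax5 near background, a difference that did not pass does not show that levels were alike.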
